A study of Mus musculus with 6 samples.

Results

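The VEGF and angiopoietin genes described here were Vegfa, Vegfb, Vegfc, Pgf, Flt1, Kdr, Nrp1, Nrp2, Angpt1 and Angpt2, which are 10 of the 19057 gene symbols on the arrays. Their members were every probe whose annotation named 1 of these symbols alone, 24 of 45281 probes. An additional probe (ILMN_2505584) carried Nrp2 together with a further symbol and was not counted. The study asked which genes a glucocorticoid regulates in adipocytes, and it measured total RNA on 6 Illumina MouseWG-6 arrays.

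All samples were 3T3-L1 cells, a mouse embryonic fibroblast line that can be turned into fat-storing cells in the dish. All of them had been differentiated with a mixture that itself held dexamethasone, methylisobutylxanthine and insulin, had then been kept without drugs, and had spent 24 hours in medium with 5% stripped serum. The vehicle group (3 arrays) received ethanol at 0.05% of the medium for 6 hours, and the DEX group (3 arrays) received 500 nM of the synthetic glucocorticoid dexamethasone over the same time. The control cells had therefore also met DEX earlier, during differentiation. As a culture of 1 cell line, the model holds no vessels. Whether each replicate came from its own culture is not said, and the p-values below rest on how far these arrays lie apart, which may be technical. In bulk RNA, fewer cells that express a gene and less of its RNA per cell cannot be told apart.

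Vascular endothelial growth factors (VEGFs) are secreted proteins that make blood and lymph vessels grow and leak, and fat cells release them to keep the blood supply in step with the size of the tissue. VEGF-A acts mainly through the receptor kinase VEGFR2 (the product of Kdr), VEGF-B and placental growth factor bind VEGFR1 (Flt1), and VEGF-C drives lymphatic vessels through VEGFR3, while the neuropilins (Nrp1, Nrp2) are co-receptors shared with the semaphorins. Angiopoietin 1 activates the endothelial receptor Tie2 and steadies vessels, and angiopoietin 2 can oppose it.

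The promoter sequences below show the stretch just before the start of Vegfc, Flt1 and Vegfa. Vegfc was higher with DEX, the call of Flt1 changed with the processing and the arrays used, and the values of Vegfa were lower with DEX. The sequences are from RefSeq on GRCm38.p6, they read 5′ to 3′ on the strand of the gene, and they end at the base before the annotated start. Capitals mark matches to the motifs searched, as described after the sequences.
Vegfc, chr8:54077282-54077531, plus strand: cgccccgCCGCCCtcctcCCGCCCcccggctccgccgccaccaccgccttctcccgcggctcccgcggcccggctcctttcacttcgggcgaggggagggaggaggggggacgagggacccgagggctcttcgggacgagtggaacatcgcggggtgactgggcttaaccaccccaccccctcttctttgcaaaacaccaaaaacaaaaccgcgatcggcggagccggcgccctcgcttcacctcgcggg
Flt1, chr5:147726012-147726261, minus strand: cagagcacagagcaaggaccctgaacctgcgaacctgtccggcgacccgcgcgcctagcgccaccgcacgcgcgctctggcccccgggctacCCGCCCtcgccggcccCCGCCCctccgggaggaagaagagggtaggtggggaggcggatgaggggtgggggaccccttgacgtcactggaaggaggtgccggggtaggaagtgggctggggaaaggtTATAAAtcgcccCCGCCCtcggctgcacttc
Vegfa, chr17:46032378-46032627, minus strand: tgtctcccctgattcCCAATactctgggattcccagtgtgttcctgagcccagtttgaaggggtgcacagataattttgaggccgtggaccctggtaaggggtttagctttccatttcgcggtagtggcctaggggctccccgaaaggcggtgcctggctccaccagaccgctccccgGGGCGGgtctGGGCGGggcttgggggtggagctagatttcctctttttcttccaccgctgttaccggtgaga

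The motifs were searched on both strands of windows of 300 bases, 250 before and 50 from the start. They were the glucocorticoid response element (GNACANNNTGTNC, in 0.475% of all 32851 windows), its 6-base part AGAACA (19.0%), the hypoxia response core ACGTG (19.6%), the E box CACGTG (7.15%), the GC box GGGCGG (35.7%), the AP-1 site TGANTCA (7.81%), the CCAAT box CCAAT (37.4%) and the TATA box TATAAA (13.6%). Every E box also holds the hypoxia response core, so these matches overlap. Of the 10 genes, 8 had an entry, with 10 windows. None of the 10 windows held either glucocorticoid motif, an AP-1 site or an E box. With the full glucocorticoid element in 0.475% of all windows, its absence was the usual outcome. An absence from 300 bases says nothing about sites elsewhere in or around these genes.

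The Vegfc window held 2 GC boxes on the opposite strand, starting at -243 and -232 from the start, and no other match. The Flt1 window held 3 GC boxes on the opposite strand (-158, -142 and -19) and a TATA box at -31. The Vegfa window shown held 2 GC boxes (-72 and -62) and a CCAAT box (-235). The other Vegfa window (chr17:46025114-46025413) was at a further annotated start, downstream of the start of the window shown. It held a hypoxia response core (-211), the only one in the 10 windows, with a GC box (-158) and a CCAAT box (-60). Whether these bases lie in an exon of a transcript from the start shown was not examined. GC boxes were in 9 of the 10 windows, of which Vegfa and Pgf had 2 each. The share of G and C in these windows was 59.3% to 75.3%, against a median of 52.7% over all windows. A match only says that these letters occur in the window. Angpt1 and Angpt2 had no entry.

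Of the 24 probes, 11 of 8 genes were tested, that is, they had a detection p-value (the share of negative control beads as bright as the probe) under 0.05 on at least 3 arrays. The other 13 were not tested. Of these, 12 were detected on no array and 1 on some arrays, and their bead signals, on the linear scale and not normalized, lay between 78.2 and 113, against array medians of 91.9 to 96.8. Kdr and Pgf had no tested probe.

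**Figure D1:**
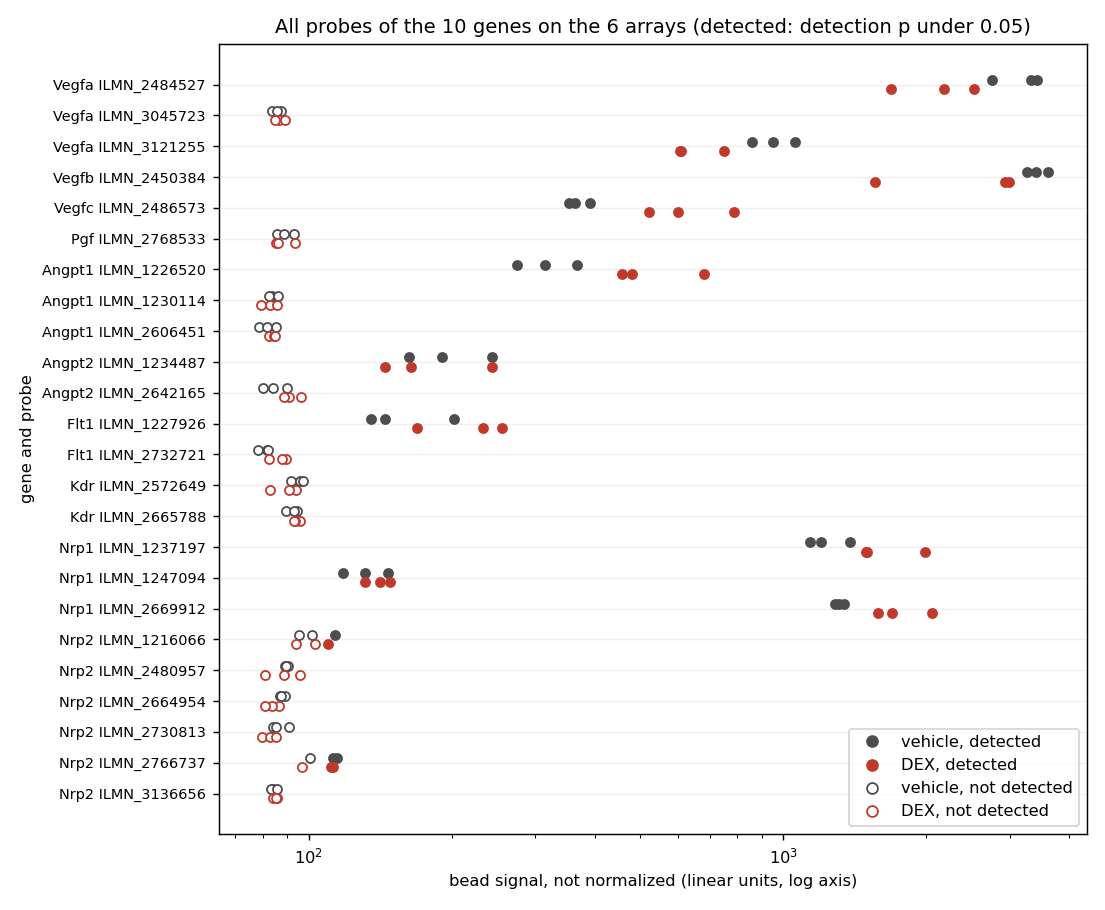
Bead signal of all 24 probes on each of the 6 arrays (log axis, linear units, not normalized), with vehicle in grey and DEX in red, filled where the detection p was under 0.05 and open where it was not. The signals of the 13 probes that were not tested lie between 78.2 and 113, and both Kdr probes and the Pgf probe are open on every array.

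At an adjusted p under 0.05 from limma, 2 of the 11 tested probes were higher with DEX, those of Vegfc and Angpt1, and 0 were lower. Over all 16317 tested probes, 693 were higher (4.25%) and 416 lower (2.55%). The members were chosen with earlier results of these data known, so their counts beside such shares are only a description. Before adjustment, 7 of the 11 had a p under 0.05 in limma, 5 of them higher and 2 lower, against 20.8% of all tested probes. Vegfa and Nrp1 each gave 2 of these 7, and probes of the same gene are not separate members. Of the 1109 probes called in either direction (6.8%), 62.5% were higher, and 46.8% of those called after median scaling in place of quantile normalization. The count of 2 fell to 0 without vehicle 2 or without the detection filter and to 1 without vehicle 3, DEX 2 or DEX 3, was 2 without vehicle 1, where Flt1 passed and Angpt1 did not, and rose to 4 without DEX 1. The share of all tested probes called higher moved too. It was 2.45% without vehicle 2, 4.77% without DEX 1 and 1.15% without the detection filter. The median log2 fold change was 0.29 over the 11 probes and -0.04 over all tested probes. Of the 11 changes, 6 were above 0 and 5 below, and the median was the value of a dim Nrp1 probe, ILMN_1247094 (adjusted p = 0.362 from limma).

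**Figure D2:**
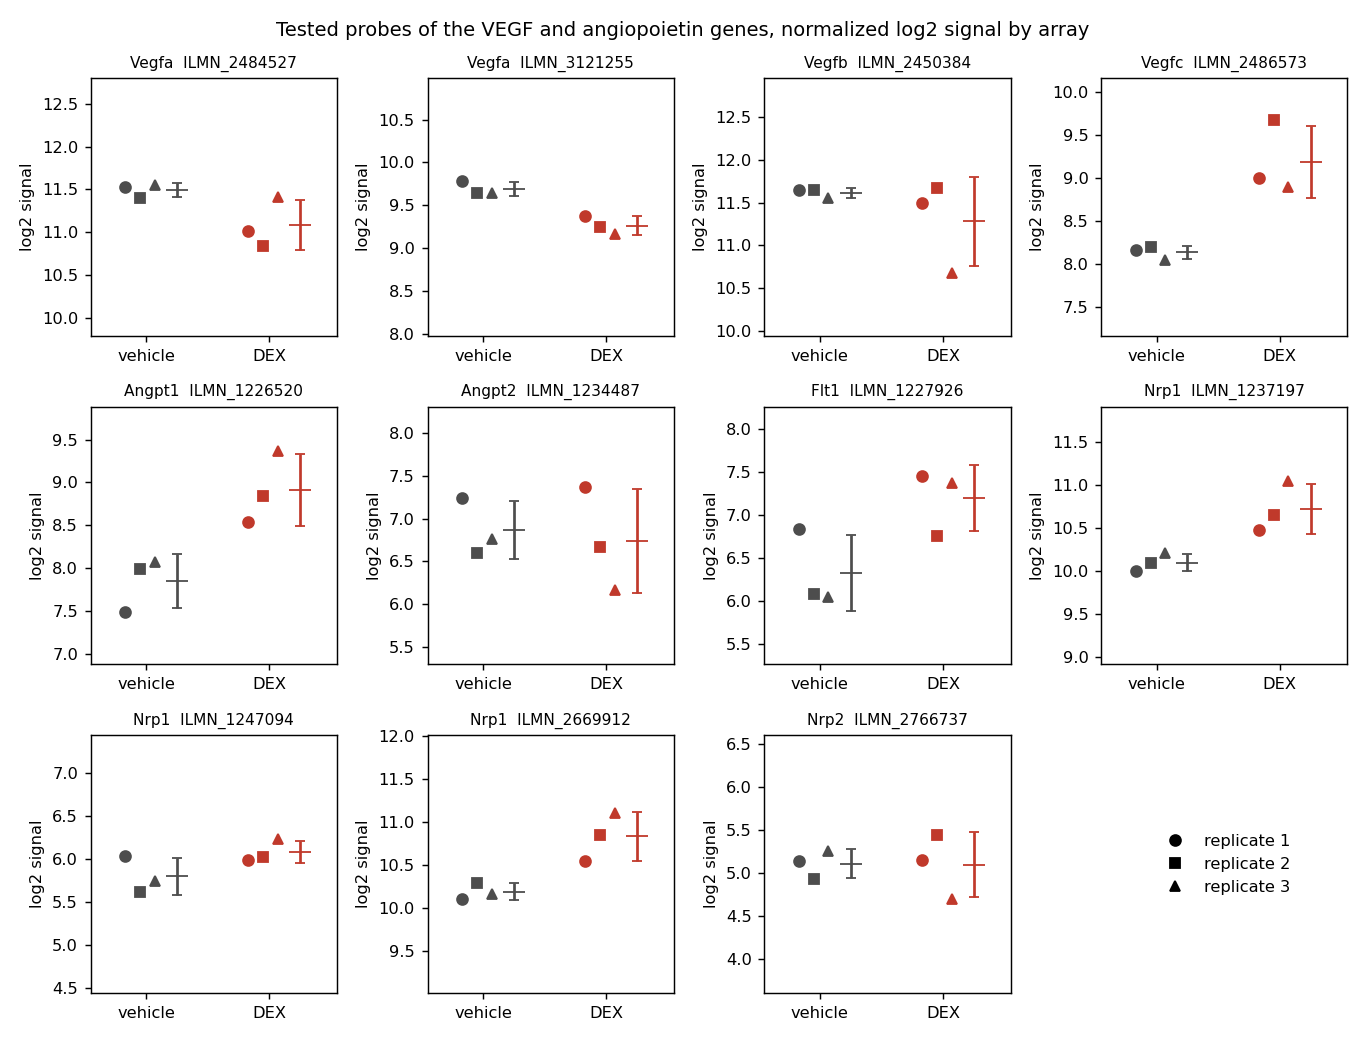
Normalized log2 signal of the 11 tested probes on each array (circle, square and triangle for replicates 1, 2 and 3), with the group mean and 1 SD at the side (n = 3 per group), each panel spanning 3 log2 units around its own middle. The Vegfc and Angpt1 panels show all DEX arrays above all vehicle arrays, with a log2 fold change of 1.05 and 1.06.

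Vegfc, the lymphatic growth factor, was 2.07-fold higher with DEX. Its only probe (ILMN_2486573) had log2 signals of 8.16, 8.20 and 8.05 on vehicle arrays 1, 2 and 3 and of 8.996, 9.67 and 8.89 on DEX arrays 1, 2 and 3. The vehicle arrays lay close together, all DEX arrays were above them, and DEX 2 was the highest. The group means were 8.13 ± 0.08 and 9.19 ± 0.42 (SD, n = 3 each), a log2 fold change of 1.05 (standard error 0.21, 95% confidence interval 0.59 to 1.52, adjusted p = 0.0152 from limma). The size of the change was 0.81 to 1.29 over 15 alternative settings, with adjusted p-values from 0.000761 to 0.0813 in limma. The call was lost with no detection filter (adjusted p = 0.0813), without vehicle 2 (log2 fold change 1.08, adjusted p = 0.0584) and without vehicle 3 (1.01, adjusted p = 0.0613).

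Vegfa encodes the main growth factor of blood vessels, and neither of its tested probes passed the adjusted threshold. The probe ILMN_3121255 had log2 signals of 9.79, 9.65 and 9.64 with vehicle and of 9.38, 9.25 and 9.16 with DEX, so that all DEX arrays were below all vehicle arrays. The log2 fold change was -0.43 (standard error 0.14, 95% confidence interval -0.74 to -0.11, adjusted p = 0.109 from limma), or 1.35-fold lower. The probe ILMN_2484527 read 11.53, 11.40 and 11.56 with vehicle and 11.02, 10.84 and 11.41 with DEX. Here the groups overlapped, since DEX 3 was level with vehicle 2. Its log2 fold change was -0.41 (standard error 0.17, adjusted p = 0.217 from limma), so both probes gave nearly the same size.

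The calls of Vegfa moved with the processing. The probe ILMN_3121255 passed in limma with no background correction (-0.39, adjusted p = 0.0378), with the authors' lumi values (-0.39, adjusted p = 0.0425) and with array weights (-0.40, adjusted p = 0.0389), and its adjusted p ranged from 0.0378 to 0.311 over the 15 alternatives. The probe ILMN_2484527 passed with array weights only (-0.52, adjusted p = 0.0253). The remaining Vegfa probe (ILMN_3045723) was detected on no array, with bead signals of 83.4 to 89.1.

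Vegfb encodes a ligand of VEGFR1 that is abundant in tissues that burn fatty acids. Its log2 signals were 11.65, 11.64 and 11.55 with vehicle and 11.49, 11.66 and 10.68 with DEX. A single array, DEX 3, was far below the other 5, and DEX 2 was as high as the vehicle arrays. The log2 fold change was -0.33 (standard error 0.24, 95% confidence interval -0.87 to 0.20, adjusted p = 0.483 from limma), and without DEX 3 it was -0.04. Pgf, the gene of placental growth factor, was not detected on any array by its only probe, with bead signals of 85.3 to 93.6.

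Angpt1, the activating ligand of Tie2, was 2.09-fold higher with DEX. The probe ILMN_1226520 had log2 signals of 7.49, 7.99 and 8.07 with vehicle and of 8.53, 8.84 and 9.36 with DEX. The groups did not overlap, although each spread over more than the vehicle arrays of Vegfc did. The means were 7.85 ± 0.31 and 8.91 ± 0.42 (SD, n = 3 each), and the log2 fold change was 1.06 (standard error 0.24, 95% confidence interval 0.53 to 1.59, adjusted p = 0.0265 from limma).

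The size of the Angpt1 change was 0.84 to 1.25 over the 15 alternatives, with adjusted p-values from 0.00239 to 0.134 in limma. Without the detection filter its adjusted p was 0.134. It also lost its call without vehicle 1 (0.88, adjusted p = 0.0878), vehicle 2 (1.13, adjusted p = 0.0742), DEX 2 (1.10, adjusted p = 0.0825) or DEX 3 (0.84, adjusted p = 0.0577), and kept it without vehicle 3 or DEX 1. The other Angpt1 probes, ILMN_1230114 and ILMN_2606451, were detected on no array, with bead signals of 79.2 to 86.2 and 78.6 to 85.4, so the rise rests on 1 probe of 3.

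Angpt2, which can block the action of angiopoietin 1 on Tie2, had log2 signals of 7.24, 6.60 and 6.76 with vehicle and of 7.37, 6.67 and 6.16 with DEX (ILMN_1234487). The groups overlapped entirely, with DEX 1 the highest and DEX 3 the lowest of all 6 arrays. The log2 fold change was -0.13 (standard error 0.29, 95% confidence interval -0.79 to 0.52, adjusted p = 0.848 from limma). Without DEX 3 it was 0.15 and without DEX 1 it was -0.45, so its direction rested on single arrays. A second Angpt2 probe (ILMN_2642165) was detected on no array.

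Among the receptors, Flt1 encodes VEGFR1, which binds VEGF-A, VEGF-B and placental growth factor and whose soluble form traps them. The probe ILMN_1227926 had log2 signals of 6.84, 6.09 and 6.05 with vehicle and of 7.46, 6.75 and 7.38 with DEX. Vehicle 1 stood above vehicle 2 and 3 and just above DEX 2, so the groups overlapped. The log2 fold change was 0.87 (standard error 0.26, 95% confidence interval 0.29 to 1.45, adjusted p = 0.0806 from limma), or 1.83-fold higher.

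With the replicate number as a block, Flt1 passed in limma at an adjusted p of 0.0143, and the DEX array was above the vehicle array of the same number by 0.62, 0.67 and 1.33 on the log2 scale. Without vehicle 1 the log2 fold change of Flt1 was 1.12 (adjusted p = 0.0315), and with array weights 0.79 (adjusted p = 0.0334). Over all alternatives its size was 0.51 to 1.12, with adjusted p-values from 0.0143 to 0.283. A second Flt1 probe (ILMN_2732721) was detected on no array.

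Kdr, the gene of the main signaling receptor of VEGF-A, was not detected on any array by either of its probes. The bead signals were 82.7 to 97.2 (ILMN_2572649, designed to a cDNA clone) and 89.6 to 95.8 (ILMN_2665788), with detection p-values from 0.146 to 0.739 and from 0.17 to 0.331. No fold is given for Kdr, since both groups were at background.

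Nrp1, a co-receptor of VEGF-A and of class III semaphorins, had 2 bright probes that moved alike. The probe ILMN_1237197 had log2 signals of 10.001, 10.09 and 10.21 with vehicle and of 10.48, 10.65 and 11.05 with DEX. The probe ILMN_2669912 had log2 signals of 10.11, 10.30 and 10.16 with vehicle and of 10.55, 10.85 and 11.11 with DEX. By both probes the groups did not overlap and DEX 3 was the highest array.

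The log2 fold change of Nrp1 was 0.63 (standard error 0.17, 95% confidence interval 0.23 to 1.02, adjusted p = 0.0663 from limma) by ILMN_1237197 and 0.64 (standard error 0.17, 95% confidence interval 0.26 to 1.03, adjusted p = 0.0568) by ILMN_2669912, or 1.54-fold and 1.56-fold higher. Neither passed the threshold. With the replicate number as a block both passed in limma, at adjusted p-values of 0.0247 and 0.0288, and the DEX array was higher in all 3 pairs. Both also passed with no background correction, with the offset of 50, with the authors' lumi values, with array weights and without DEX 1, with adjusted p-values from 0.016 to 0.0428. The remaining Nrp1 probe, ILMN_1247094, designed to a cDNA clone, was near background at 6.03, 5.62 and 5.75 with vehicle and 5.99, 6.03 and 6.23 with DEX (a log2 change of 0.29 with a standard error of 0.16, adjusted p = 0.362 from limma).

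Nrp2, the neuropilin that serves VEGF-C, had 6 probes. The tested probe (ILMN_2766737) was detected on 2 of 3 arrays in each group and read 5.14, 4.93 and 5.25 with vehicle and 5.15, 5.44 and 4.69 with DEX. The groups overlapped, and the log2 fold change was -0.01 (standard error 0.20, 95% confidence interval -0.47 to 0.44, adjusted p = 0.980 from limma). The probe ILMN_1216066, designed to a cDNA clone, was detected on 1 array per group. The other 4 probes were detected on no array, with bead signals between 79.8 and 95.7.

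Across the 11 probes, the groups did not overlap for 5. Of these, 4 were higher with DEX (Vegfc, Angpt1 and the 2 bright Nrp1 probes), where 11.9% of all tested probes were, and 1 was lower (Vegfa ILMN_3121255), where 14.5% were. Arrays of the same replicate number deviated from their group means alike (correlation 0.25 to 0.44), but no label ties them together. The blocked fit in limma called 5 of the 11 probes higher, 2 of them of Nrp1, and 0 lower. Its adjusted p-values were 0.00505 for Vegfc and 0.00239 for Angpt1. Calls also rose over all tested probes, to 6.29% higher and 5.17% lower, against 4.25% and 2.55% without the block. With median scaling, the change of the middle probe among all tested was -0.13 on the log2 scale, against -0.04 with quantile normalization, and relative to it Vegfc was higher by 1.06, Angpt1 by 1.07 and Flt1 by 0.93, while the Vegfa probes were at -0.45.

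**Figure D3:**
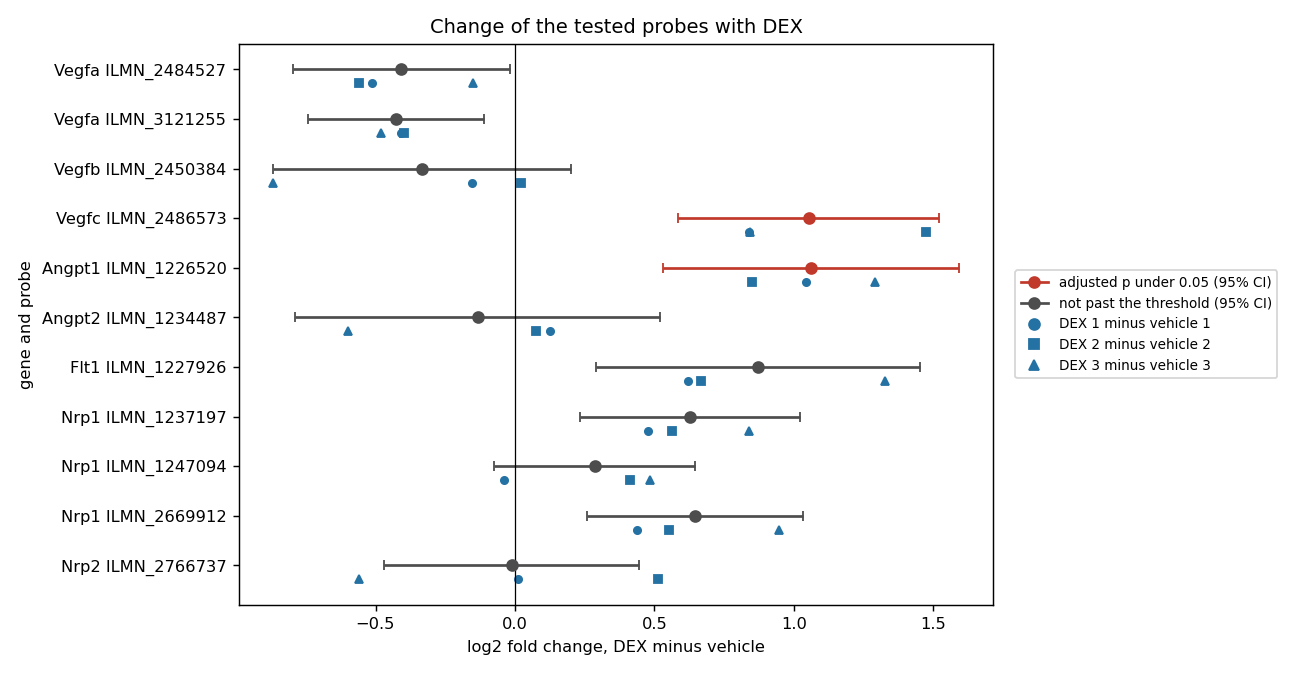
Log2 fold change (DEX minus vehicle) of the 11 tested probes with its 95% confidence interval, red where the adjusted p was under 0.05, and below each the differences between the DEX and vehicle arrays of the same number (blue). All 3 differences are above 0 for Vegfc, Angpt1, Flt1 and the 2 bright Nrp1 probes, and all 3 are below 0 for both Vegfa probes.

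**Figure D4:**
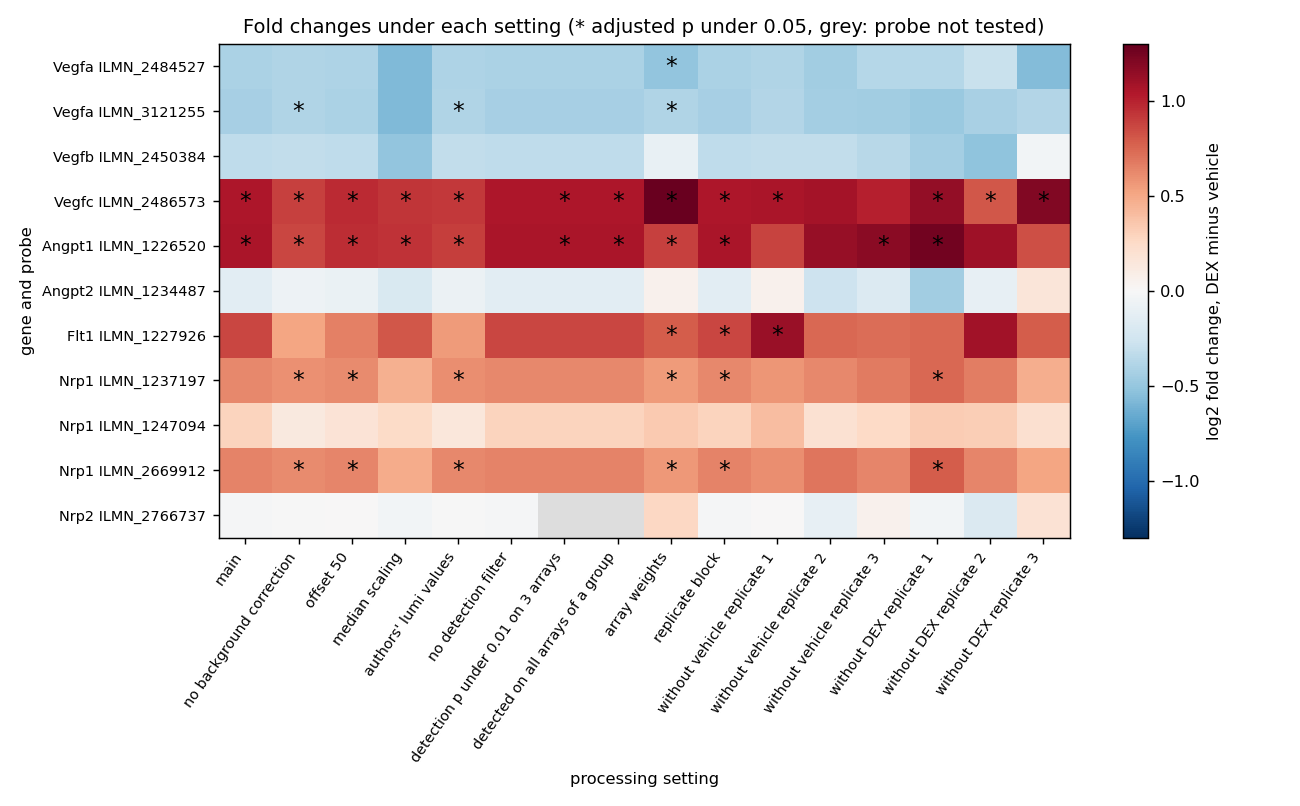
Log2 fold change (colour, DEX minus vehicle) of the 11 tested probes (vertical) under each processing setting (horizontal), with a star where the adjusted p was under 0.05 and grey where the probe was not tested. Vegfc and Angpt1 are red in every column, and lost their star in 3 and 5 of the 15 alternatives.

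The genes most like Vegfc across the 6 arrays, by Pearson correlation among 8898 genes, were Dram2 (0.993), Chst11 (0.990) and Cdh2 (0.988). Those most like Angpt1 were Gde1 (0.998), the adaptor Shb (0.994) and Peli2 (0.992). All points share the same 6 arrays and the 2 groups, and the values are a description. Of these 6 genes, Chst11 passed the test (log2 fold change 0.80, adjusted p = 0.0398 from limma).

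The partners of the same pathways were taken as gene lists, counted by the brightest tested probe of each gene. Over 9144 genes counted in that way, 4.52% were higher and 3.06% lower, and the median log2 fold change was -0.06. Of 86 tested genes in the 7 lists, 14 were higher and 7 lower, with a median of 0.01. The lists were chosen with earlier results of these data known, so these counts beside the shares are only a description. They include Angptl7, Edn1 and Fgf2, which passed the detection filter only through the group where they were high. Leaving out 1 array moved the total of 21 to 12 without vehicle 1 or vehicle 3, to 9 without vehicle 2, to 13 without DEX 2, and to 20 and 23 without DEX 1 and DEX 3.

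Among 8 tested partners of VEGF and Tie signaling, 2 were higher and 0 lower by the probe counted, although 1 of the 3 other tested Gipc1 probes was called lower. Vegfd, which encodes the other ligand of VEGFR3, read 9.25, 9.46 and 9.25 with vehicle and 10.56, 10.58 and 9.66 with DEX (a log2 change of 0.95 with a standard error of 0.24, adjusted p = 0.0470 from limma). The groups did not overlap, but DEX 3 was close to the vehicle arrays. Sema3c, a neuropilin ligand, was at 1.80 (adjusted p = 0.0251), and Plxnd1 (0.37, adjusted p = 0.270) and Sema3f (-0.34, adjusted p = 0.194) did not pass, although 1 of the 2 other tested Plxnd1 probes was called higher. Vegfd lost its call in 8 and Sema3c in 7 of 15 alternatives, among them the removal of vehicle 1, 2 or 3 or of DEX 2 (adjusted p = 0.0592 to 0.157), and for Vegfd also of DEX 1 (0.0905). Tek and Tie1, the receptors of the angiopoietin pathway, were detected on no array and Flt4, the receptor of VEGF-C and VEGF-D, on 1 vehicle array and no DEX array.

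Of 5 angiopoietin-like genes, 2 were higher and 1 lower. Angptl7, not detected with vehicle, was at least 1.52-fold higher against the lowest signal of a detected probe (adjusted p = 0.00782 from limma), a call its second tested probe did not share. The Angptl7 probe passed the detection filter only through the DEX arrays, so this p-value is no separate support for the change. Angptl4, an inhibitor of lipoprotein lipase, was at 0.55 (adjusted p = 0.0480) and lost its call in 6 of 15 alternatives, the removal of any array but DEX 3 among them (adjusted p = 0.0662 to 0.21). Angptl8 was at -2.50 (adjusted p = 0.00926) and was detected on 1 of 3 DEX arrays. Its log2 signals were 6.17, 7.65 and 8.33 with vehicle, a wide spread, and 4.93, 4.58 and 5.14 with DEX. The DEX signals lay near or below the dimmest signals of detected probes (4.97 to 5.05), so the size of this fold is uncertain. Angptl8 lost its call without DEX 2 (adjusted p = 0.05002). Without the detection filter its adjusted p was 0.104 and that of Angptl7 0.0587. Angptl1 (-1.04, adjusted p = 0.0624, or 0.00156 with the replicate number as a block) and Angptl6 (-0.35, adjusted p = 0.563) did not pass.

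Of 15 genes that process or hold VEGF in the matrix, 3 were higher and 0 lower. The matricellular Ccn1 was at 1.58 (adjusted p = 0.00831 from limma), Ccn2, which binds VEGF-A, at 1.20 (adjusted p = 0.0499, lost in 10 of 15 alternatives) and the protease Adamts1 at 0.82 (adjusted p = 0.0247), while Sparc (0.18, adjusted p = 0.602) and Serpinf1 (-0.09, adjusted p = 0.773) did not pass. Ccn2 lost its call without any array but DEX 3 (adjusted p = 0.0841 to 0.161), Adamts1 without vehicle 1, 2 or 3 (0.0737 to 0.116), with median scaling (0.0542) or with no detection filter (0.0813), and Ccn1 only with no detection filter (0.0791). The other tested Ccn2 probe was not called, and 1 of the 2 other tested Adamts1 probes was. Of 17 hypoxia-inducible genes, which share a regulator with Vegfa, 2 were higher, Ddit4 (1.38, adjusted p = 0.00250) and Ndrg1 (1.14, adjusted p = 0.00941), and 0 were lower. Ddit4 passed under all 15 alternatives, and Ndrg1, whose other tested probe was not called, did not without vehicle 2 (adjusted p = 0.0555) or with no detection filter (0.0599). The glycolytic genes Pgk1 (0.04) and Ldha (0.01) had adjusted p-values of 0.947 and 0.990 and turned below 0 with median scaling (-0.11 and -0.15).

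Of 12 regulators of VEGF transcripts, 2 were higher and 1 lower. Zfp36, an RNA-binding protein that destabilizes transcripts including that of Vegfa, had log2 signals of 8.44, 8.11 and 8.19 with vehicle and 10.52, 10.40 and 9.66 with DEX (log2 fold change 1.95, adjusted p = 0.000811 from limma). Vhl, part of the ligase that marks hypoxia-inducible factors for breakdown, was at 0.80 (adjusted p = 0.0355), a call lost in 7 of 15 alternatives, with the removal of any array but DEX 2 among them (0.0602 to 0.137). The coactivator Ppargc1a was at -1.27 (adjusted p = 0.00225), while Zfp36l1 (0.21) and Hnrnpl (0.04, turning to -0.14 with median scaling) did not pass (adjusted p = 0.531 and 0.933). Zfp36 and Ppargc1a kept their calls under all 15 alternatives.

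Of 14 transducers of VEGF receptor signals, 1 was higher, the small heat shock protein Hspb1 (2.73, adjusted p = 6.89e-05 from limma), and 1 lower, the nitric oxide synthase Nos3 (-1.16, adjusted p = 0.00741). Shc1 (-0.13, adjusted p = 0.687) and Ptpn11 (0.31, adjusted p = 0.277) did not pass, although 1 of the 3 other tested Ptpn11 probes was called higher. Of 15 other angiogenic factors, 2 were higher and 4 lower by the probe counted. Hgf was not called by that probe, but its other tested probe was called lower. Sphk1 was at 1.65 (adjusted p = 0.00233), and Edn1, not detected with vehicle, was at least 1.45-fold higher (adjusted p = 0.0128). Igf1 was at -0.87 (adjusted p = 0.0409), Fgf2, not detected with DEX, was at least 1.49-fold lower (adjusted p = 0.0169), and the other lower genes were Ccl2 and Tgfb1. Edn1 passed the detection filter only through the DEX arrays and Fgf2 only through the vehicle arrays. Their p-values are therefore no separate support for these changes. Edn1 lost its call without vehicle 1, 2 or 3 (adjusted p = 0.0565 to 0.0572), Fgf2 without vehicle 2 or 3 (0.0938 and 0.0751) and Igf1 without vehicle 2 or 3 or DEX 1 or 3 (0.0694 to 0.17), while Hspb1, Nos3 and Sphk1 passed under all 15 alternatives. Edn1 and Fgf2 also lost their calls with no background correction (log2 fold changes of 0.27 and -0.28, adjusted p = 0.0818 and 0.0886), with the offset of 50 (0.0545 and 0.0555) and with the lumi values (0.0687 and 0.0753), and Igf1 with no detection filter (0.149). Cxcl12 (-0.57, adjusted p = 0.0576, or 0.0307 with the replicate number as a block) and Pdgfa (-0.42, adjusted p = 0.327) did not pass.

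**Figure D5:**
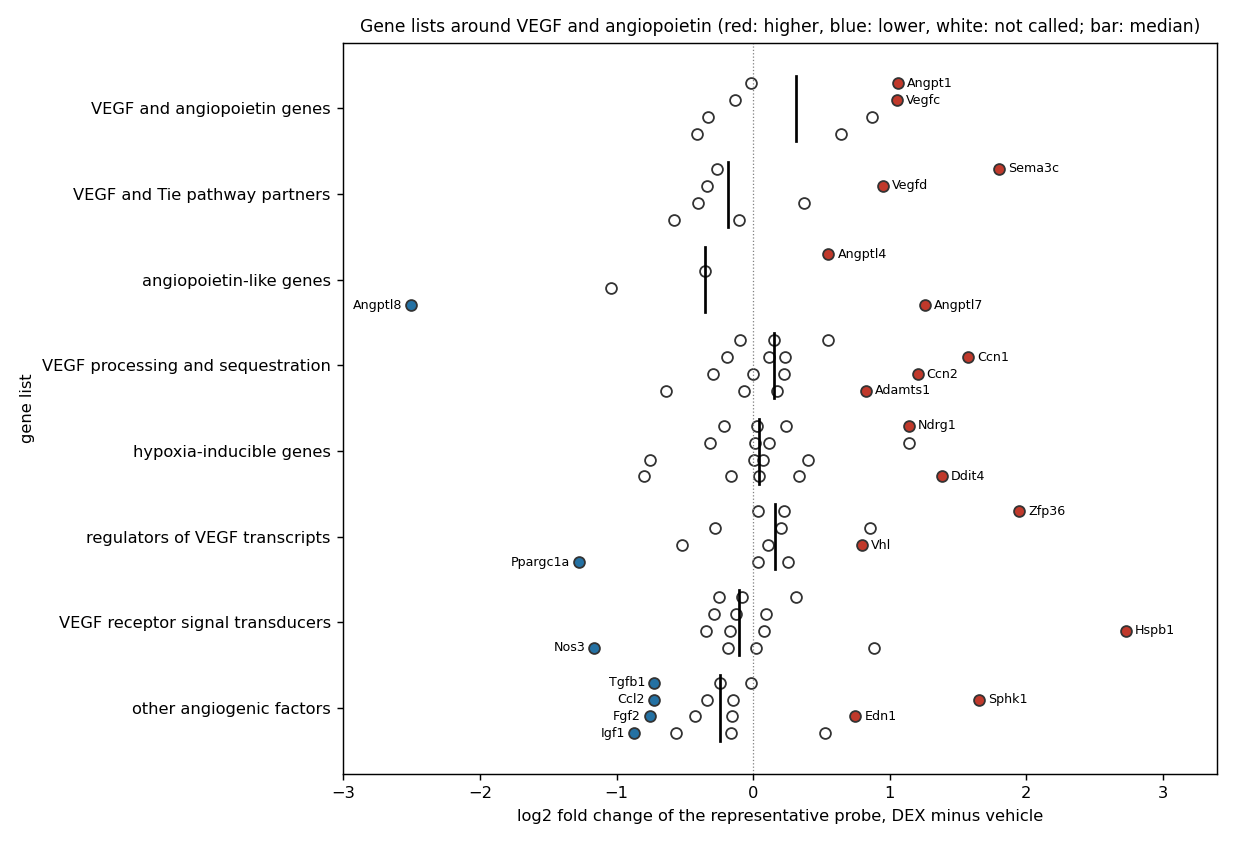
Log2 fold change (DEX minus vehicle) of 1 probe per gene for the VEGF and angiopoietin genes and the 7 lists, with genes called higher in red and lower in blue, the others white, and the median of each list as a bar. The values of Angptl7, Edn1 and Fgf2 are fitted to a group that was not detected and are not bounds. Of the 86 genes in the lists, 14 are red and 7 blue.

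The arrays detected 15800 to 16523 probes each, and the log2 signals correlated at 0.974 to 0.994 within groups and 0.958 to 0.978 between them. All 7 glucocorticoid-responsive genes checked were higher with DEX, led by the co-chaperone Fkbp5 at 6.01 on the log2 scale (adjusted p = 3.15e-07 from limma). Of 15 endothelial markers, 10 were detected on no array (Tek, Tie1, Vwf, Cldn5, Emcn, Esam, Eng, Erg, Robo4 and Sox17), Egfl7 and Plvap were tested and did not pass, and the normalized signals summed over the list on the linear scale were 470 to 474 with vehicle and 409 to 463 with DEX. No macrophage marker of 6 was tested. Of 3 tested mural markers Pdgfrb was lower (-1.10, adjusted p = 0.0188, or 0.0602 to 0.0905 without vehicle 1, vehicle 2 or DEX 3), none of 5 markers of preadipocytes and fibroblasts was called, and of 11 adipocyte markers Plin1 was lower (-1.03, adjusted p = 0.00289). Among the preadipocyte and fibroblast markers, Pdgfra, named after its values were seen, was at 0.63 with groups that did not overlap (adjusted p = 0.0510), and that list had 1 gene higher in 8 of the 15 alternatives. The part of Pdgfrb-expressing or Pdgfra-expressing cells in the values of Angpt1 was not tested.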

How the data were processed

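Total RNA (750 ng per labeling reaction) of 3 vehicle and 3 DEX samples of 3T3-L1 adipocytes was hybridized to MouseWG-6 arrays of a single batch. The deposited values were mean bead signals, an intensity for each probe on each array, linear and not normalized, and a detection p-value of each signal against negative control beads. The authors also deposited intensity values pre-processed with lumi. For its version and options, nothing was given in the sources used here.

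The normexp model removed background from the bead signals by way of the detection p-values (offset 16), and the signals were then quantile-normalized and put on the log2 scale, all in limma 3.58.1 under R 4.3.3. The test took the 16317 of 45281 probes (36.0%) detected at p under 0.05 by 3 or more of the 6 arrays. DEX was set against vehicle with limma's moderated test (two-sided), with Benjamini-Hochberg adjustment across those probes, and a change was called at an adjusted p under 0.05. The offset shrinks the folds of dim probes, and the number of arrays, 3 per group, limits the precision. Where a group detected a gene on no array, its fold is a lower bound. Each array of that group then counts at the dimmest log2 signal of any detected probe on it (4.97 to 5.05).

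Of the probes, 34885 carried 1 gene symbol in the platform annotation, 18 several and 10378 none. A list gene with no such probe was not analysed here. The members and the gene lists were chosen with earlier results of these data known. The genes named were all members, up to 4 called genes with the largest change and up to 2 others with the highest signal in each list, and the 3 genes that correlated best with each called member. Ccl2, Tgfb1, Pdgfra, Gipc1 and Hgf were named outside this rule, after their values were seen.

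No label or method ties equal replicate numbers together. Vehicle and DEX arrays of equal number deviated from their group means in the same direction (correlation 0.44, 0.30 and 0.25), and the other combinations gave -0.37 to 0.10. Deviations from the mean of 3 arrays cancel out within a group, so positive values at equal numbers force the others lower. Those lower values are no separate sign of pairing. A fit with the number as a block served as a paired alternative. The other alternatives were no background correction, an offset of 50, median scaling, the lumi values, 3 other detection filters, array weights and leaving out each array. The fits were tested on simulated data. Promoter windows were from RefSeq (GRCm38.p6), matched by symbol. Python 3.11.15 with pandas 2.3.3, numpy 2.4.6 and matplotlib 3.10.9 served for tables and plots.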

Additional observations from a re-analysis of the deposited data

How the results depend on the processing

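The log2 fold changes of Vegfc and Angpt1 were above 0 under all 15 alternatives, and those of both Vegfa probes and Vegfb were below 0. This describes the direction only, and Vegfb was called under none of them (adjusted p from 0.226 to 0.914 in limma). The count of 2 member probes called higher became 4 with no background correction, with the offset of 50 and with the authors' lumi values, 5 with array weights and 0 with no detection filter, under which Vegfc (1.05) and Angpt1 (1.06) no longer passed. The count called lower became 1 with no background correction and with the lumi values and 2 with array weights. Of all tested probes, 4.41% were higher and 3.04% lower with no background correction, and 4.49% and 3.05% with the lumi values. The shares were 4.58% and 3.07% with the offset of 50, 8.51% and 8.43% with array weights, and 1.15% and 0.665% with no detection filter. Probes that passed only under an alternative were Vegfa ILMN_3121255 (-0.39 with no background correction, -0.39 with the lumi values and -0.40 with array weights), Vegfa ILMN_2484527 (-0.52 with array weights), Flt1 (0.79 with array weights), Nrp1 ILMN_1237197 (0.60, 0.61 with the offset of 50, 0.60 with the lumi values, 0.55 with array weights) and Nrp1 ILMN_2669912 (0.61, 0.63, 0.62 and 0.57 in the same order). With the replicate number as a block, 5 member probes were higher, since Flt1 (0.87) and the Nrp1 probes (0.63 and 0.64) passed too. The block changed no other member call, and 11 list genes were lower. Of all tested probes, 6.29% were then higher and 5.17% lower. Angpt2 turned to 0.051 and Nrp2 to 0.27 with array weights, and Nrp2 to 0.00057 with the offset of 50.

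Leaving out 1 array gave 0 to 4 member probes higher and 0 lower, a log2 fold change of 0.81 to 1.21 for Vegfc, 0.84 to 1.25 for Angpt1, -0.45 to 0.15 for Angpt2, 0.73 to 1.12 for Flt1, 0.47 to 0.75 and 0.51 to 0.79 for the Nrp1 probes and -0.19 to 0.19 for Nrp2. With an array left out, 2.45% to 4.77% of all tested probes were called higher and 0.778% to 3.19% lower. Array weights put DEX 3 at 0.283 and vehicle 2 at 3.34. The 21 list genes called (14 higher, 7 lower) were 10 (6 and 4) with no detection filter, 30 with array weights (13 of them lower), and 9 to 23 (6 to 14 and 3 to 9) with an array left out. Among named list genes, Pgk1 and Ldha turned to -0.11 and -0.15 with median scaling and -0.036 and -0.12 with array weights, and Hnrnpl to -0.14 with median scaling. With an array left out, Pgk1 ranged from -0.19 to 0.29, Ldha from -0.25 to 0.21, Hnrnpl from -0.082 to 0.24 and Angptl6 from -0.62 to 0.052. The 974 other values were fold changes of named list genes and counts of calls in each list, and 803 stayed the same. For a fold change this meant the same direction and call, and for a count an equal value or one within 1.5-fold. Some counts, such as those of the macrophage markers, were 0 under every setting. Of the fold changes, 69 no longer passed, 12 newly passed and 12 turned, and 78 counts moved further. The causes were not tested. A change in Kdr, Pgf or the other probes at background was not detectable by these probes.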
